A study of Homo sapiens with 6 samples.

Results

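The genes described here encode the subunits of the hypoxia-inducible factors (HIF) and the enzymes and the ligase receptor that couple them to oxygen. They are HIF1A, EPAS1, ARNT, ARNT2, EGLN1, EGLN2, EGLN3, HIF1AN and VHL, taken by symbol, and all 9 were found among the 15496 genes of the deposited table. Expression was measured by sequencing of polyadenylated RNA in HEK293, an established cell line derived from human embryonic kidney. A group of 3 libraries came from cells given Quinolinol B23, and a control group of 3 libraries came from cells labelled DMSO-control, the solvent. Both groups were the same unmodified line, grown in RPMI medium with fetal bovine serum, so every result refers to 1 cell line. Neither dose nor time of treatment is stated in the labels, which name no low-oxygen culture. No label says whether the libraries of a group came from separate cultures, and p-values here reflect only how far these libraries scatter, which could be technical scatter alone.

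HIF is a dimer of an oxygen-labile alpha subunit and a stable beta subunit. In the presence of oxygen, iron and 2-oxoglutarate the EGLN enzymes (also called PHD) hydroxylate prolines of the alpha subunit, VHL binds the hydroxylated protein and the VHL ubiquitin ligase marks it for the proteasome. HIF1AN (also called FIH) hydroxylates an asparagine of the alpha subunit and so keeps the coactivators EP300 and CREBBP away. When hydroxylation fails, the dimer binds hypoxia response elements with the core ACGTG or GCGTG, and its known targets include EGLN1 and EGLN3 themselves. RNA levels are what was measured, and neither protein nor hydroxylation was.

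The libraries held 40950318 to 47444126 recovered reads in the listed genes, and the 9 genes had 343 to 10198 reads per library. Counting error alone was therefore at most 5.40% of a value for EGLN3 and at most 3.18% for the others, and it covers counting error only. Values are CPM, the reads of a gene over the library size that the authors set, and differences are B23 minus DMSO on the log2(CPM + 0.5) scale. They were tested in limma with Benjamini-Hochberg adjustment over the 14792 genes whose mean reached 1 CPM. Most genes passed that test, 39.6% of all being higher and 49.0% lower in B23, 88.6% together (edgeR 88.8% and DESeq2 87.2% on the recovered reads). With the listed genes scaled to the same total, 4352 genes were higher and 9074 lower, in place of 5856 and 7255, and with median-of-ratios scaling 6624 were higher and 6519 lower. All 10 genes listed for the HEK293 background were present, with a summed level of 949 to 991 CPM in DMSO libraries and 1358 to 1440 CPM in B23 libraries. Of 10 markers of other cell types, 7 were not listed (PTPRC, LYZ, ALB, PECAM1, CDH5, UMOD and NPHS1), and the level of COL1A1, DCN and PMEL together was between 11.2 and 12.4 CPM in DMSO libraries and between 12.7 and 14.8 CPM in B23 libraries. COL1A1 went from a mean of 9.37 to 12.4 CPM, while PMEL went from 2.35 to 1.22 CPM and DCN from 0.0796 to 0.0410 CPM. Their part in the results was not tested.

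After B23, 5 of the 9 genes rose, 3 fell and EPAS1 missed the threshold. Of all genes tested 39.6% were called higher and 49.0% lower, 88.6% together. A call by itself therefore does not set the 9 genes apart. HIF1A, ARNT and EGLN1 were more than 2-fold higher, ARNT2 rose 1.24-fold and HIF1AN 1.14-fold, EGLN2, EGLN3 and VHL fell, and EPAS1 differed by 1.07-fold. With the CPM as deposited, the 3 genes called at least 2-fold higher compare with 9.65% of all genes tested. None was called 2-fold lower, where the share of all genes was 15.8%. The count of 3 held with median-of-ratios and TMM scaling but not with every scaling. With the listed genes scaled to the same total, ARNT and EGLN1 had log2 differences of 0.95 and 0.81, under 2-fold, and only HIF1A (1.27) stayed above. With quantile normalization EGLN1 was under 2-fold, at 0.66. The shares of all genes at 2-fold were not computed for these scalings. The values of the groups did not overlap for any of the 9 genes, as for 88.9% of all genes tested. The median log2 difference was 0.19 over the 9 genes and -0.10 over all genes tested. With the listed genes scaled to the same total these medians were -0.061 and -0.34, and with median-of-ratios scaling 0.30 and 0.0027. Each value is an average over a culture, so fewer cells with an RNA and less of it per cell cannot be told apart.

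**Figure D1:**
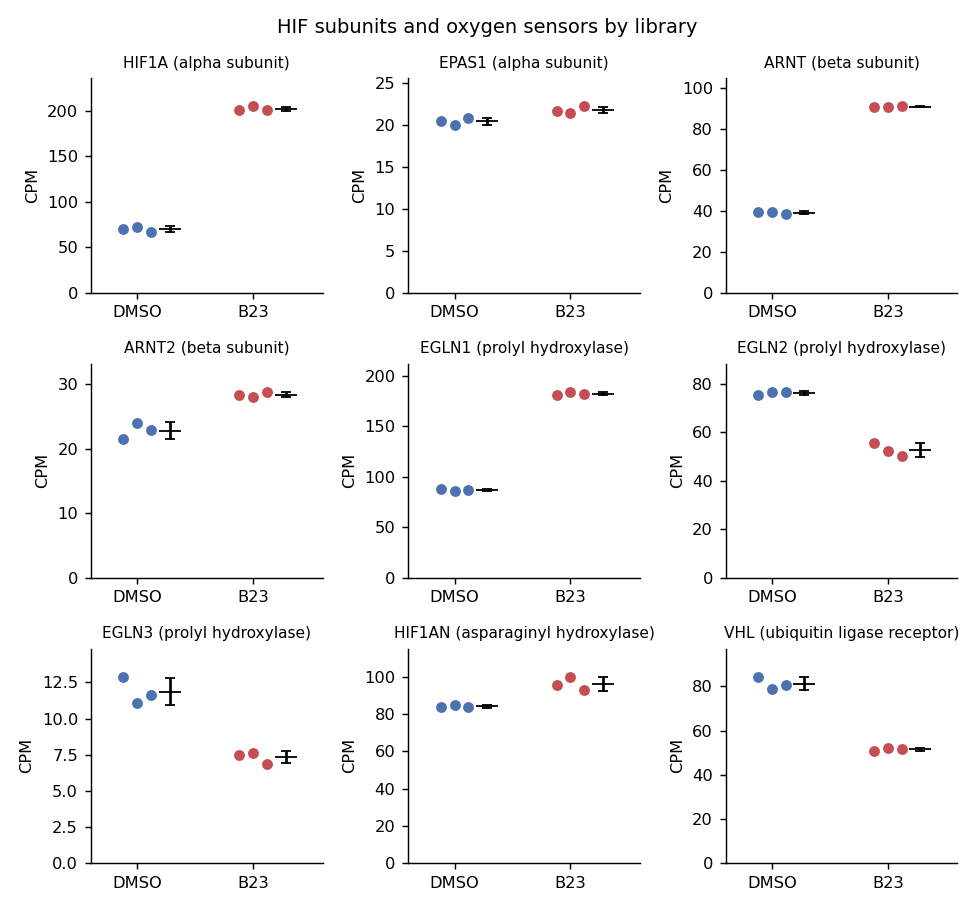
CPM of each of the 9 genes in the 3 DMSO libraries (blue) and the 3 B23 libraries (red), on linear axes that start at 0, with the mean and SD in black beside each group. HIF1A, ARNT and EGLN1 lie far higher in B23, VHL, EGLN2 and EGLN3 lie lower, and EPAS1 is nearly level.

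The alpha subunits parted. HIF1A, the alpha subunit found in most tissues, was at 70.5, 72.7 and 66.6 CPM in DMSO and at 200.7, 205.2 and 200.9 CPM in B23. Every B23 library was far above every DMSO library, and the mean went from 69.9 ± 3.08 to 202.2 ± 2.54 CPM (SD, n = 3), 2.89-fold. The log2 difference was 1.53 (SE 0.036, limma adjusted p = 7.64e-22), and 96.8% of the genes tested had a lower one. EPAS1 (HIF-2 alpha), the alpha subunit known from endothelium and from the control of erythropoietin, was at 20.5, 20.01 and 20.8 CPM in DMSO and at 21.7, 21.4 and 22.2 CPM in B23. The groups did not overlap, but the distance between them was small, with a log2 difference of 0.089 (95% interval -0.0059 to 0.18, limma adjusted p = 0.0722). That interval leaves out a rise of the size seen for HIF1A.

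In GRCh38 HIF1A lies on chromosome 14 from 61695513 to 61748259 and EPAS1 on chromosome 2 from 46293667 to 46386703. HIF1A shares 148 of its 5151 exon bases with AL137129.1 on the same strand, which rose from 12.7 ± 0.603 to 28.3 ± 0.991 CPM (SD, n = 3). The antisense genes HIF1A-AS1, HIF1A-AS2 and HIF1A-AS3 and the third alpha subunit gene HIF3A were not listed in the deposited table, so they have no values here.

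EPAS1 RNA carries an iron-responsive element in its 5′ untranslated region, a hairpin known to be bound by iron regulatory protein when iron is scarce, which holds back translation. Translation was not measured, and the part of this element in the results was not tested. The stretch is shown as a known feature of EPAS1 RNA. It lies at chr2:46297476-46297505 in GRCh38, plus strand, in the GENCODE 29 transcript, and the capitals mark the bulged C and the CAGTG of the loop.
EPAS1: ccgtacaatCctcggCAGTGtcctgagact
The searched letters, a C, any 5 bases and then CAGTG on the transcript strand, were found in the 5′ untranslated regions of 8.92% of 13331 coding genes, VHL among them, so the letters alone mark no element.

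The beta subunits both rose, by different amounts. ARNT (HIF-1 beta), the general partner of the alpha subunits and of the dioxin receptor AHR, was at 39.5, 39.6 and 38.5 CPM in DMSO and at 91.2, 90.7 and 91.2 CPM in B23. The libraries of each group lay close together and the groups were well apart, at 39.2 ± 0.591 and 91.0 ± 0.262 CPM (SD, n = 3), 2.32-fold (log2 difference 1.21, SE 0.035, limma adjusted p = 5.05e-20). ARNT2, a paralogue known mainly from the nervous system and the kidney, was at 21.5, 24.1 and 22.96 CPM in DMSO and at 28.3, 28.1 and 28.9 CPM in B23. Its rise was 1.24-fold, from 22.8 ± 1.27 to 28.4 ± 0.433 CPM (SD, n = 3), with a log2 difference of 0.31 (SE 0.047, limma adjusted p = 1.42e-06). This call was lost when libraries were scaled to the same total of listed genes, which left a difference of 0.063 (adjusted p = 0.203). ARNT lies on chromosome 1 from 150809705 to 150876768 and ARNT2 on chromosome 15 from 80404350 to 80597937 in GRCh38.

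The 3 prolyl hydroxylase genes did not move together: EGLN1 rose while EGLN2 and EGLN3 fell. EGLN1 (PHD2), the main HIF prolyl hydroxylase of most cells, was at 87.9, 86.2 and 87.2 CPM in DMSO and at 181.2, 184.5 and 181.5 CPM in B23. The mean rose 2.09-fold, from 87.1 ± 0.878 to 182.4 ± 1.78 CPM (SD, n = 3), with a log2 difference of 1.06 (SE 0.032, limma adjusted p = 1.02e-19). It was 0.66 with quantile normalization and still called.

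EGLN2 (PHD1), a mainly nuclear enzyme of the family, was at 75.5, 76.8 and 76.7 CPM in DMSO and at 55.7, 52.5 and 50.1 CPM in B23. All B23 libraries were below all DMSO libraries, and the mean fell 1.45-fold from 76.3 ± 0.747 to 52.8 ± 2.84 CPM (SD, n = 3; log2 difference -0.53, SE 0.039, limma adjusted p = 4.93e-12). The row of EGLN2 cannot be told apart from that of RAB4B-EGLN2, a readthrough gene on the same strand that shares 2012 of its 6577 exon bases. RAB4B-EGLN2 had nearly the same level in each group, 77.5 ± 1.503 and 54.3 ± 2.48 CPM (SD, n = 3).

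EGLN3 (PHD3), the member of the family best known as strongly induced in hypoxia, was the least abundant of the 9 genes by CPM. It was at 12.9, 11.1 and 11.6 CPM in DMSO and at 7.498, 7.61 and 6.88 CPM in B23. The lowest DMSO library was above the highest B23 library, and the mean fell 1.62-fold from 11.9 ± 0.939 to 7.33 ± 0.393 CPM (SD, n = 3). The log2 difference was -0.66 (SE 0.067, limma adjusted p = 2.21e-09), the lowest of the 9 genes with the CPM as deposited, and -0.25 with quantile normalization. In GRCh38 EGLN1 lies on chromosome 1 from 231363751 to 231425044, EGLN2 on chromosome 19 from 40798996 to 40808433 and EGLN3 on chromosome 14 from 33924231 to 34462774. The long span of EGLN3 covers SPTSSA, with which it shares 0 exon bases.

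The promoters of EGLN1 and EGLN2 are shown because both hold the HIF core ACGTG although their RNAs moved in opposite directions. The sequences are those of RefSeq on GRCh38.p14, 30 bases each on the strand of the gene, and the capitals mark the core. It starts 13 bases before the RefSeq start of EGLN1 (chr1:231422288-231422317, minus strand), and in EGLN2 (chr19:40799130-40799159, plus strand) the palindrome CACGTG, which reads ACGTG on both strands, starts 49 bases before the start. HIF1A (chr14:61695297-61695326, plus strand) and EPAS1 (chr2:46297278-46297307, plus strand) hold the other core, GCGTG, 204 and 117 bases before the start.
EGLN1: ccgcggggccgtggtgtACGTGcagagcgc
EGLN2: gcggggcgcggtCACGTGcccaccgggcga
HIF1A: tggctgagagcgGCGTGggctggggtgggg
EPAS1: gggcctgccggcGCGTGcccgcccacacac
Starts of 7 of the 9 genes were in the promoter table, 9 starts in all, and these 4 held ACGTG or GCGTG on either strand within 250 bases upstream. The RefSeq starts of EGLN1 and EPAS1 lie 2757 and 3740 bases inside the GENCODE 29 spans given above, so these windows are upstream of the RefSeq starts and not of the outermost GENCODE starts. Either core was found in 43.2% of all 35116 promoters of the table and in 44.4% of the 9 starts. ACGTG alone was found in 18.5% and 22.2%, so the letters by themselves do not set these genes apart. The letters were not in that window at the starts of ARNT, EGLN3 and HIF1AN, nor at the second start of HIF1A and of EGLN2. The RefSeq starts of EGLN3 and HIF1AN lie 511700 and 6871 bases inside their GENCODE 29 spans. Their outermost GENCODE starts were therefore not searched.

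HIF1AN, the asparaginyl hydroxylase gene, was at 83.8, 85.2 and 83.9 CPM in DMSO and at 95.7, 100.3 and 93.0 CPM in B23. The mean rose 1.14-fold from 84.3 ± 0.791 to 96.3 ± 3.68 CPM (SD, n = 3), with a log2 difference of 0.19 (SE 0.035, limma adjusted p = 2.48e-05). This direction held only with some scalings. It turned to -0.13 (adjusted p = 0.00159) with quantile normalization and to -0.061 (adjusted p = 0.114) with the listed genes scaled to the same total. HIF1AN, on chromosome 10 from 100529072 to 100559998 in GRCh38, shares 325 of its 13950 exon bases with NDUFB8 and 31 with AL133352.1, both on the opposite strand. NDUFB8 went from 98.2 ± 6.56 to 120.8 ± 6.14 CPM and AL133352.1 from 84.3 ± 5.89 to 100.3 ± 6.12 CPM (SD, n = 3).

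VHL, the receptor subunit of the ligase that recognises hydroxylated alpha subunits, was at 84.4, 78.8 and 80.6 CPM in DMSO and at 50.8, 52.2 and 51.5 CPM in B23. The groups were well apart, and the mean fell 1.58-fold from 81.3 ± 2.87 to 51.5 ± 0.709 CPM (SD, n = 3; log2 difference -0.65, SE 0.037, limma adjusted p = 2.24e-14). VHL lies on chromosome 3 from 10141008 to 10152220 in GRCh38.

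**Figure D2:**
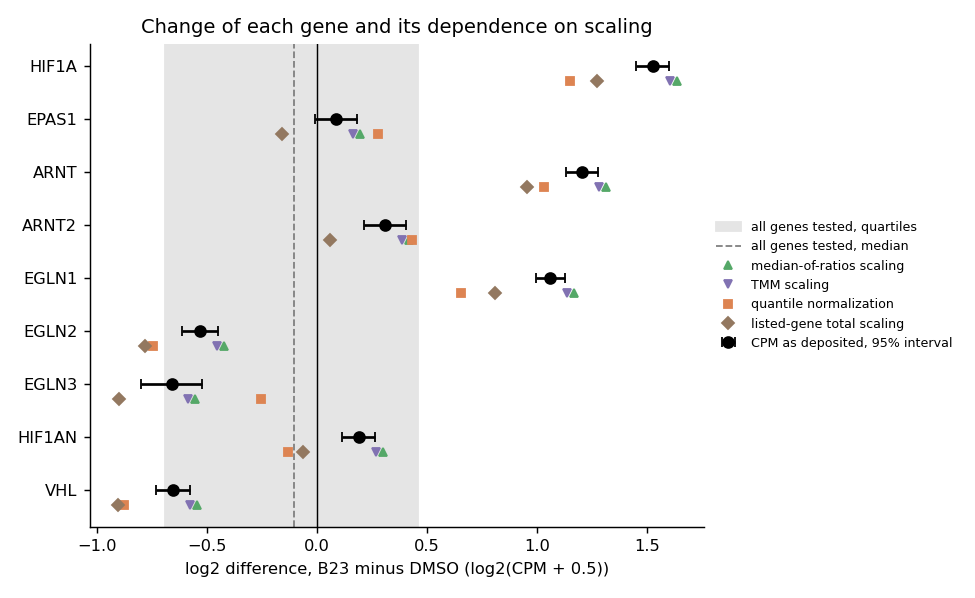
Log2 difference of each gene, B23 minus DMSO on the log2(CPM + 0.5) scale, with its 95% interval from limma (black) and the difference under 4 other scalings (coloured). The grey band holds the middle of all genes tested between the quartiles, -0.69 and 0.46, and the dashed line is their median. The signs of EPAS1 and HIF1AN depend on the scaling, while those of the other 7 genes do not.

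The authors' scaling matters for small differences. With the listed genes scaled to the same total, 3 of the 9 genes were called higher and 4 lower. That scaling moved the median log2 difference of all genes from -0.10 to -0.34, and median-of-ratios scaling moved it to 0.0027. EPAS1 was called higher with median-of-ratios scaling (0.20), with TMM scaling (0.17) and with quantile normalization (0.28), and lower with the listed-gene total (-0.16). Ratios of 2 genes within a library do not depend on a factor for that library, so they were compared beside the single genes.

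The 6 ratios were taken between both alpha subunits, both beta subunits, 3 hydroxylases and EGLN1, and VHL and HIF1A, and they restate the differences of single genes free of a factor for the library. The log2 ratio of EPAS1 to HIF1A, of CPM + 0.5, was -1.76, -1.84 and -1.65 in DMSO and -3.18, -3.23 and -3.15 in B23. All B23 libraries were lower, and the ratio fell 2.71-fold. The log2 ratio of ARNT2 to ARNT was -0.77 ± 0.082 in DMSO and -1.66 ± 0.018 in B23 (SD, n = 3), a 1.86-fold fall. The log2 ratio of EGLN2 to EGLN1 was -0.22, -0.16 and -0.18 in DMSO and -1.69, -1.80 and -1.85 in B23, so genes of near-equal CPM came to differ, and the ratio fell 3.01-fold. The ratio of EGLN3 to EGLN1 fell 3.30-fold and that of HIF1AN to EGLN1 fell 1.83-fold.

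Of the 6 ratios, that of VHL to HIF1A moved furthest. The log2 ratio of VHL to HIF1A was 0.26, 0.12 and 0.27 in DMSO and -1.97, -1.96 and -1.95 in B23, and the ratio fell 4.53-fold. The order of these 2 genes by CPM was thus inverted in every B23 library. In an exact two-sided permutation test each of the 6 ratios gave p = 0.10 (0.10 adjusted over the 6), the smallest value that 3 against 3 libraries allow. With quantile normalization the fall of the log2 ratio was smaller for EPAS1 to HIF1A (-0.87 in place of -1.44) and for EGLN3 to EGLN1 (-0.91 in place of -1.72).

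**Figure D3:**
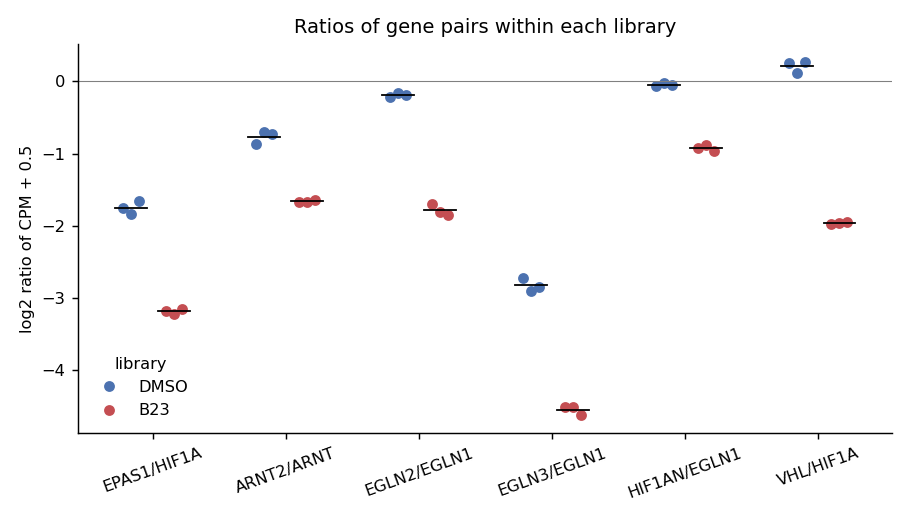
Log2 ratio of CPM + 0.5 for 6 gene pairs in each DMSO library (blue) and each B23 library (red), with group means as black bars. All 6 ratios are lower in every B23 library than in every DMSO library.

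Levels of different genes were compared as CPM per kilobase of exon, over the union of all annotated exons. In DMSO VHL stood highest with 19.3 ± 0.681 CPM per kilobase, ahead of HIF1A with 13.6 ± 0.598 and of EGLN1 with 11.99 ± 0.121 (SD, n = 3). EGLN2 followed with 11.6 ± 0.114, then HIF1AN with 6.04 ± 0.057 and ARNT with 6.01 ± 0.091, whose libraries overlapped (CPM per kilobase). ARNT2 with 2.95 ± 0.164 and EPAS1 with 2.80 ± 0.055 CPM per kilobase overlapped as well, and EGLN3 was lowest with 1.61 ± 0.128.

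In B23 the order began with HIF1A at 39.3 ± 0.492 CPM per kilobase, then EGLN1 at 25.1 ± 0.246, ARNT at 14.0 ± 0.040 and VHL at 12.2 ± 0.168 (SD, n = 3). EGLN2 (8.02 ± 0.432), HIF1AN (6.90 ± 0.264), ARNT2 (3.67 ± 0.056), EPAS1 (2.98 ± 0.053) and EGLN3 (0.996 ± 0.053 CPM per kilobase) followed, and no neighbours in this order overlapped. VHL thus went from the first place to the fourth. The places depend on the length used: per kilobase of the principal transcript EGLN2 was the highest in DMSO, at 27.1 CPM per kilobase, the union of its exons spanning 6577 bases and that transcript 2821.

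As a share of the 3 prolyl hydroxylase RNAs per kilobase, EGLN1 was 47.8%, 47.4% and 47.6% in DMSO and 72.4%, 73.8% and 74.5% in B23. EGLN2 went from 46.0% ± 0.680 to 23.5% ± 0.989 and EGLN3 from 6.40% ± 0.473 to 2.92% ± 0.115 (SD, n = 3). With the length of the principal transcripts, a choice made after seeing the data, the share of EGLN1 went from 28.1% to 54.6%, that of EGLN2 from 61.9% to 39.7% and that of EGLN3 from 10.02% to 5.74%. EGLN2 thus had the largest share in DMSO by that length. Its ratio, levels per kilobase and shares are uncertain, as its row cannot be told apart from that of RAB4B-EGLN2. HIF1A was 82.9% ± 0.905 of the RNA of both alpha subunits per kilobase in DMSO and 92.9% ± 0.183 in B23, and ARNT was 67.1% ± 1.28 of that of both beta subunits in DMSO and 79.2% ± 0.215 in B23 (SD, n = 3). The groups did not overlap in any of these shares (exact two-sided permutation p = 0.10 for each, the smallest possible).

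The differences of all coding genes moved with the number of exons, from a median log2 difference of -1.13 for 282 genes with 1 exon to 0.14 for 4402 genes with 13 or more. Its part in the results was not tested. VHL, with 3 exons, had a difference of -0.65, close to the median of -0.68 of the 1412 coding genes with 2 to 3 exons. The prolyl hydroxylase genes all have 5 exons, where the class of 4 to 6 exons had a median of -0.26 and quartiles of -0.77 and 0.25. EGLN2 and EGLN3 lay between those quartiles and EGLN1 above the upper one. HIF1A (15 exons) and ARNT (22 exons) lay above the upper quartile of their class, 0.64, while ARNT2 and EPAS1 lay inside it.

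**Figure D4:**
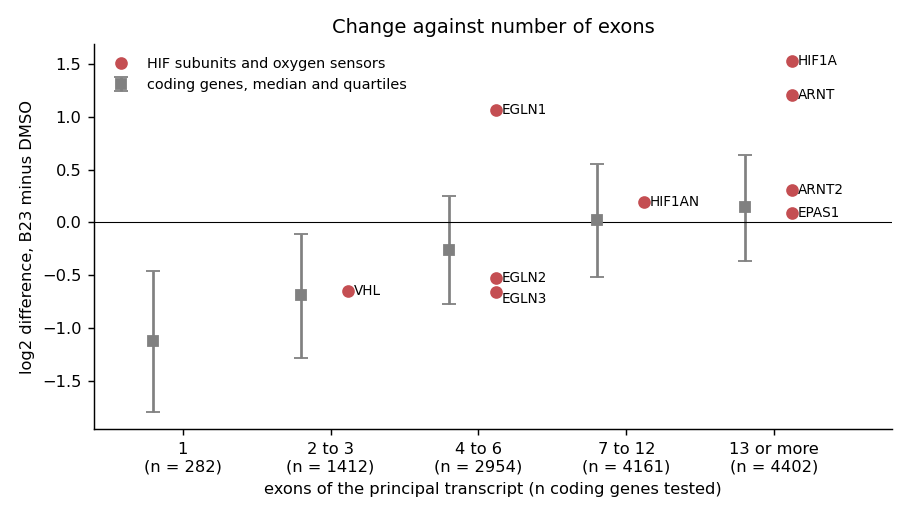
Log2 difference, B23 minus DMSO, of the 9 genes (red) beside the median and quartiles of all coding genes tested (grey) by the number of exons of the principal transcript. HIF1A, ARNT and EGLN1 lie above the upper quartile of their class and the other 6 genes lie within the quartiles of theirs.

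The genes most like HIF1A and EGLN3 were sought by the distance between their 6 log2(CPM + 0.5) values, each set relative to the DMSO mean of the gene. Among the genes nearest to HIF1A, the member with the largest rise, were DNM3 (distance 0.066) and USP15 (0.068), with log2 differences of 1.53 and 1.55. There were 13 genes within a distance of 0.1 of HIF1A. Nearest to EGLN3, the member with the largest fall by the deposited CPM, were ZSWIM7 (0.027), PPIL2 (0.093) and VEGFC (0.097), with log2 differences of -0.66, -0.62 and -0.64. VHL fell by nearly as much as EGLN3, and by more with quantile normalization (-0.87 against -0.25) or with the listed-gene total (-0.903 against -0.898).

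Other genes of the pathway were taken from 7 lists, and the list of HIF antisense genes had none in the deposited table. The counts of the lists stand beside 39.6% of all genes tested called higher and 49.0% called lower. Of 12 measured bHLH-PAS and nuclear coactivator genes 7 were called higher and 3 lower (6 and 5 with the listed-gene total). Their median log2 difference was 0.31 beside -0.10 for all genes tested, and 0.060 with the listed-gene total. AHR, which also partners ARNT, rose 2.28-fold from 23.2 ± 0.420 to 52.9 ± 0.941 CPM (SD, n = 3). NCOA3, a coactivator, had a log2 difference of 0.79 and the clock gene CLOCK one of 0.71. SIM1, another ARNT partner, had a log2 difference of -1.15, and NPAS1 had one of -0.34.

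In the list of the VHL ligase, which did not include VHL, 6 of 9 genes were called higher and 2 lower (5 and 3 with the listed-gene total). Their median was 0.50, and 0.25 with the listed-gene total or 0.27 with quantile normalization. Members of the complex went both ways: ELOC, the adaptor elongin C, rose 1.97-fold from 39.3 ± 2.36 to 77.6 ± 1.03 CPM, while RBX1, the RING subunit, fell from 44.1 ± 2.02 to 33.4 ± 0.694 CPM (SD, n = 3). ELOB had a log2 difference of -0.29. The conjugating enzyme genes UBE2M, UBE2D3 and UBE2D2 had log2 differences of 1.37, 1.30 and 0.71.

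Of 20 regulators of HIF protein stability 11 were called higher and 8 lower, with a median of 0.20. With the listed-gene total 9 were higher and 10 lower, with a median of -0.056. SART1, known to promote the degradation of HIF1A, rose 3.01-fold, and SIAH2, a ligase of the EGLN enzymes, fell from 22.7 ± 1.31 to 11.8 ± 0.607 CPM (SD, n = 3). UCHL1 and WTIP had log2 differences of 0.92 and 0.88, and AJUBA had one of -0.71. Of 8 coactivator and CITED genes 5 rose and 3 fell (median 0.55). With quantile normalization 4 were called higher and 2 lower (median 0.27), and the median was 0.30 with the listed-gene total. CITED2, which competes with HIF1A for EP300, fell from 119.4 ± 5.20 to 48.7 ± 1.49 CPM (SD, n = 3), and CITED4 had a log2 difference of -1.40. PKM and the Mediator kinase gene CDK8 had log2 differences of 1.96 and 1.11.

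Of 27 HIF target genes tested 24 rose and 3 fell (median 1.93). BNIP3, TFRC, LDHA and PDK1 had the largest log2 differences, 3.97, 3.91, 3.21 and 3.20, while CA12 and CXCR4 had differences of -1.07 and -0.97. Known targets within the 9 genes moved in opposite directions, EGLN1 by 1.06 and EGLN3 by -0.66. CA9, a classical target, was below the filter, with 1 read in each DMSO library and 105, 84 and 101 reads in the B23 libraries. Of 12 related hydroxylase genes 7 were called higher and 4 lower, with a median of 0.19. With the listed-gene total 5 were higher and 6 lower, with a median of -0.028, and with quantile normalization 5 were higher and 5 lower. P4HA1, a collagen prolyl hydroxylase gene also on the target list, rose 8.78-fold, while the ribosomal oxygenase genes RIOX1 and RIOX2 had log2 differences of -3.15 and -1.73, and JMJD4 one of -1.41. AHR shares 29.4% of its exon bases with AC019117.2 on the same strand, and ELOB, RIOX2 and JMJD4 share 16.8%, 27.6% and 53.8% with SRRM2, CRYBG3 and SNAP47 on the opposite strand, so their values are uncertain. CA9 shares 38.5% with ARHGEF39 on the opposite strand, which had a mean of 13.4 CPM, so its reads are uncertain too. AJUBA, CLOCK and NCOA3 share at most 1.14% with a listed gene.

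**Figure D5:**
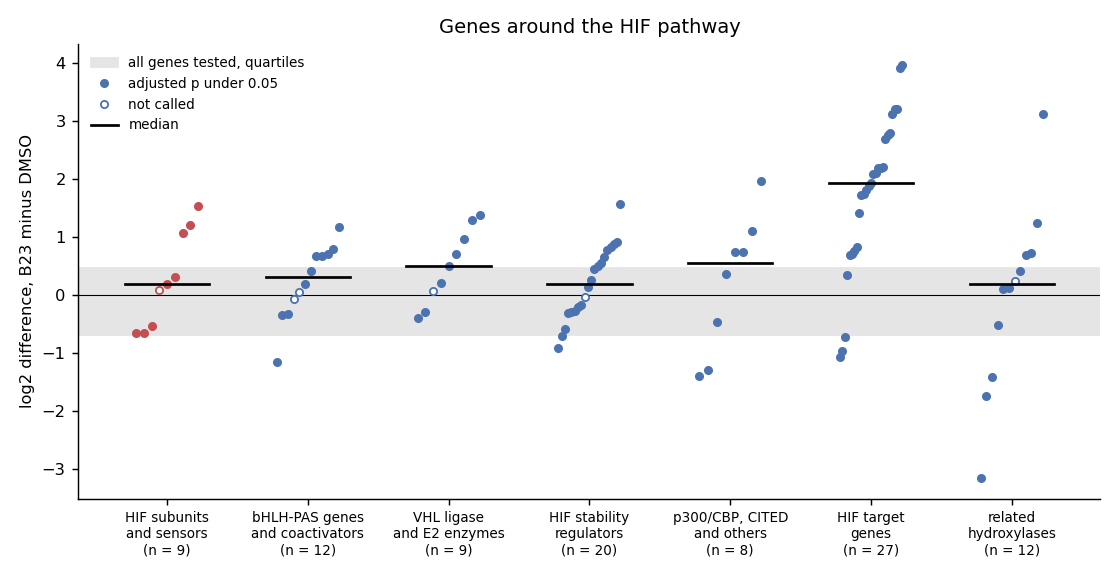
Log2 difference, B23 minus DMSO, of each tested gene of the HIF subunits and sensors (red) and of 6 further lists (blue), with medians as black bars and open circles for genes not called. The grey band spans the quartiles of all genes tested. HIF target genes had a median of 1.93, and the 9 HIF subunits and sensors one of 0.19.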

How the data were processed

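Polyadenylated RNA of 3 B23 and 3 DMSO libraries of HEK293 cells was sequenced with a stranded mRNA kit, per the labels' protocols. The authors deposited CPM per gene symbol. Per the submitters' processing notes the build was hg38 and the tools included STAR 2.6.1d, HTSeq, SAMtools and edgeR, with no order or settings. The sources used here do not state which annotation, strand setting or filter the counting used. Overlapping genes on either strand are therefore named where their mean CPM reached 10% of a member's. The deposited CPM were whole multiples of 1 read, so reads were recovered, and 100% of the values were whole within 0.001 reads. The listed genes sum to 745216 to 753745 CPM per DMSO library and 890367 to 900113 CPM per B23 library, so the authors' divisor was not the listed total.

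The CPM were used as deposited. A mean of 1 CPM or more over the 6 libraries was required (14792 of 15496 genes, all 9 members among them). Tests used log2(CPM + 0.5) in limma 3.58.1 (R 4.3.3), two-sided, with robust empirical Bayes and a mean-variance trend, at an adjusted p of 0.05. Ratios and shares were tested with exact permutation tests in scipy 1.17.1. Scripts were tested on simulated data in which few genes changed, with as many rises as falls. Most genes were called here, so that simulation does not test the choice of scaling. Positions, exon numbers and lengths are those of GENCODE 29 (GRCh38, the assembly of hg38), in which all 15496 symbols were found. The principal transcript is the one with the best APPRIS rank, or else the longest.

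Named are the 9 members, up to 4 called genes of each list with the largest change plus up to 2 that moved against the majority, overlapping genes, and the 3 genes nearest to the members with the largest rise and fall, of which 1 is not reported here. CA9 was chosen after its values were seen. The members and lists were chosen with earlier results of these data known. Recovered reads of libraries in a group differed beyond sampling noise (chi-square divided by its degrees of freedom 2.63 to 6.84), and each counted as 1 sample. Alternatives were other pseudocounts, filters, scalings and empirical Bayes settings, a stricter threshold, a replicate block, leaving out each library, and count tests of the recovered reads (edgeR 4.0.16, DESeq2 1.42.0).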

Additional observations from a re-analysis of the deposited data

How the results depend on the processing

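HIF1A, ARNT, EGLN1, EGLN2, EGLN3 and VHL kept their direction and their call under all 19 alternatives, with HIF1A between 1.151 and 1.64, ARNT between 0.95 and 1.31, EGLN1 between 0.66 and 1.17, EGLN2 between -0.78 and -0.42, EGLN3 between -0.90 and -0.25 and VHL between -0.90 and -0.54 (log2 differences). The other 3 genes depended on the scaling. EPAS1 was called higher with median-of-ratios (0.20), TMM (0.17) and quantile scaling (0.28) and with plain empirical Bayes (0.089, adjusted p = 0.0469), and was lower with the listed-gene total (-0.16), with an adjusted p of 1.22e-05 to 0.205 over the alternatives. HIF1AN was at -0.13 after quantile normalization and at -0.061 after scaling to the listed-gene total, and ARNT2 was at 0.063 with the latter, so that 3 genes in place of 5 were called higher there. The cause was not tested. The 6 ratios kept their sign under other pseudocounts, quantile normalization and each library left out. The share of EGLN3 among the prolyl hydroxylases fell by 3.48 percentage points, or by 4.28 with the length of the principal transcript.

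Leaving out any 1 library changed no call of the 9 genes. With a replicate block 5 genes were again called higher and 3 lower, and 13106 genes in all in place of 13111. Deviations of libraries with the same number correlated with r of -0.070 to 0.026 across genes. Of the 3 DMSO libraries, 0 correlated best with the B23 library of its own number. No pairing by number was thus visible, but 3 libraries per group cannot exclude one. EdgeR called 13136 genes and DESeq2 12900. Depth limits EGLN3 most, with 343 to 381 reads in the B23 libraries.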
